A study of Mus musculus with 32 samples.

Results

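The primary (azurophil) granule is the earliest granule that a myeloid progenitor makes, and its proteases are transcribed at the promyelocyte stage. The 9 genes described here encode its main enzymes, a granule proteoglycan and a regulator, together with the granule proteins of eosinophils. They are among 23620 genes that stand in both of the study's RNA tables. They were chosen by symbol: *Mpo*, *Elane*, *Prtn3*, *Ctsg*, *Prss57*, *Srgn*, *Cst7*, *Epx* and *Prg2*. All 9 symbols were found in both tables and in the annotation. Only 4 of them (*Elane*, *Prtn3*, *Ctsg* and *Prss57*) encode proteases.

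The study compared mouse leukemia driven by MLL-Af4, the fusion of MLL to the mouse Af4 protein, with and without the RNA-binding protein IGF2BP3. RNA-seq covered 12 libraries, 3 of wild-type (WT/MLL-Af4) and 3 of *Igf2bp3* knockout (I3KO/MLL-Af4) cells in each of Lin− and CD11b+ cells. Lin− cells are lineage-depleted bone marrow cells that were infected with a retrovirus carrying MLL-Af4, selected with G418 and grown in culture with cytokines. The CD11b+ population was taken with magnetic beads from splenic tumors of leukemic mice, and the knockout is a germline deletion, carried by every cell of the donor. The labels of the RNA-seq samples give the genotype without naming MLL-Af4, which comes from the study's text. IGF2BP3 eCLIP, in which RNA crosslinked to the protein is immunoprecipitated and sequenced, was made from WT/MLL-Af4 cells. It comprised 6 Lin− libraries (3 biological, replicates 1 to 3, and 3 technical, replicates 4 to 6) and 4 CD11b+ libraries (2 biological, replicates 1 and 2, and 2 technical). Each had its own size-matched input, and the names of the CD11b+ eCLIP libraries do not settle whether these cells came from marrow or spleen.

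Myeloperoxidase (*Mpo*) makes hypochlorous acid from hydrogen peroxide and chloride. Neutrophil elastase (*Elane*), proteinase 3 (*Prtn3*), cathepsin G (*Ctsg*) and *Prss57* are serine proteases that are stored active in the granule. Serglycin (*Srgn*) is a proteoglycan of the granule, and cystatin F (*Cst7*) inhibits cathepsins, among them the protease that activates the serine proteases. Eosinophil peroxidase (*Epx*) and major basic protein (*Prg2*) fill the granules of eosinophils. IGF2BP3 is an oncofetal protein that binds RNA through its RRM and KH domains and is best known for binding in 3′ UTRs and for CA-rich motifs.

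Some of the sites behind the result are shown before the values. They are the reference sequence (GRCm38, the mm10 build of the peak lists) under eCLIP peaks left after removal of those that overlapped input peaks, merged where peaks of several libraries overlapped, on the strand of the transcript from 5′ to 3′. Capitals mark exon bases and lower case marks intron bases. *Mpo* exons were numbered over both annotated transcripts, which differ in their first exon. The first group crossed or lay next to the 3′ end of an intron, where a pyrimidine-rich stretch and the letters ag precede the exon.
*Mpo* exon 4 border, chr11:87794727-87794792, plus strand: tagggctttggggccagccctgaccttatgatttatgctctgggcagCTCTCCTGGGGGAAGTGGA
*Mpo* intron 4, chr11:87795128-87795183, plus strand: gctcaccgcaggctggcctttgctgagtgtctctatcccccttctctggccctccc
*Mpo* exon 7 border, chr11:87795960-87796023, plus strand: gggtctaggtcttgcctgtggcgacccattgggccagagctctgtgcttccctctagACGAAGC
*Mpo* exon 9 border, chr11:87797278-87797333, plus strand: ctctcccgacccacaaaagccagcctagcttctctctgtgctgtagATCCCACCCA
*Mpo* exon 15 border, chr11:87804279-87804332, plus strand: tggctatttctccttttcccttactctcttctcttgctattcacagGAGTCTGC
*Prtn3* exon 5 border, chr10:79882779-79882833, plus strand: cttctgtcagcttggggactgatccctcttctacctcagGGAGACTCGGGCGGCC
*Ctsg* exon 5 border, chr14:56100146-56100207, minus strand: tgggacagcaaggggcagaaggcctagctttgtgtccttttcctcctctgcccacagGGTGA

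The second group is shown because it does not have that form. It holds the *Mpo* site found in the most libraries, which is coding, the *Prtn3* intron site found in every CD11b+ library, and the dinucleotide repeats.
*Mpo* exon 6, chr11:87795809-87795857, plus strand: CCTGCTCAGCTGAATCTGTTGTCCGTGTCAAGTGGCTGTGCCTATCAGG
*Prtn3* intron 4, chr10:79882392-79882498, plus strand: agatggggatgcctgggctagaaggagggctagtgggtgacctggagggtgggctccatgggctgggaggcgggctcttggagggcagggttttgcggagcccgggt
*Mpo* intron 10, chr11:87800415-87800466, plus strand: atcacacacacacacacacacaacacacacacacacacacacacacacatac
*Mpo* intron 8, chr11:87796880-87796925, plus strand: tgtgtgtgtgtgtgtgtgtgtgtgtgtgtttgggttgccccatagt
*Srgn* intron 3, chr10:62498834-62498882, minus strand: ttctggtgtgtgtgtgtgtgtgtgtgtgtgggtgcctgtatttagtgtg

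RNA levels were available as 1 mean per gene and table. The authors deposited a single mean normalized count per gene, taken over all 6 libraries of a cell type with both genotypes pooled, so no spread between libraries can be given and no difference between cell types or genotypes was tested, nor could the deletion of *Igf2bp3* be checked library by library. The tables were normalized separately. Among 14658 genes with a mean of at least 10 in both tables, the ratio of the CD11b+ to the Lin− mean had a median of 0.609, with 5% of genes below 0.137 and 5% above 5.69. Ranks within each table are therefore set side by side, with rank 1 the highest. In bulk RNA, fewer cells of a type and less RNA per cell cannot be told apart.

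*Mpo* was among the most abundant RNAs of both populations. Its mean was 101212 in the Lin− table (rank 3 of 26560 genes) and 84102 in the CD11b+ table (rank 4 of 25887). It accounted for 0.377% of the summed means in the Lin− table and 0.417% in the CD11b+ table. The 3 genes nearest to it on log2(mean + 1) in both tables were *Eef2*, an elongation factor of translation, at a distance of 0.56, and the predicted genes *Gm28437* and *Gm29216*, each at 0.73.

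The main serine proteases stood close together in Lin− cells and further apart in CD11b+ cells. *Elane* had a mean of 14416 in the Lin− table (rank 189) and 43055 in the CD11b+ table (rank 22). *Prtn3* had 14582 (rank 186) and 29591 (rank 45). These are the members whose CD11b+ mean exceeded the Lin− mean most, by ratios of 2.99 and 2.03. *Ctsg* had 13312 (rank 220) and 16214 (rank 113), a ratio of 1.22. *Prss57*, the remaining protease, was much lower, at 624 (rank 7951) and 657 (rank 6138).

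Per 1000 bases of exon, a scale on which genes of different length can be compared, the order in Lin− cells was *Mpo* (34852), *Elane* (14650), *Prtn3* (14226), *Ctsg* (13286), *Srgn* (3862), *Prg2* (2924), *Cst7* (2570), *Prss57* (220) and *Epx* (55.1). In CD11b+ cells *Elane* came first on this per-length scale (43755), ahead of *Mpo* (28961) and *Prtn3* (28869). *Ctsg* (16181), *Srgn* (5858), *Cst7* (1890), *Prss57* (231), *Prg2* (56.5) and *Epx* (1.64) followed. Without values per library, it is not known which neighbours in these orders differ beyond their spread.

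The proteoglycan gene *Srgn* had a mean of 6770 in the Lin− table (rank 736) and 10269 in the CD11b+ table (rank 266). *Cst7* had 2534 (rank 2803) and 1863 (rank 2458).

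The eosinophil granule genes showed the widest gap between the tables. *Prg2* had a mean of 2450 in the Lin− table (rank 2900) and 47.3 in the CD11b+ table (rank 12944), a ratio of 51.8. *Epx* had 148 (rank 11443) and 4.41 (rank 18098), a ratio of 33.6. Other eosinophil markers split between the tables. A mean of at least 10 was found for 3 of 7 listed in the Lin− table, with a summed mean of 747, and for 4 of 8 in the CD11b+ table, with a summed mean of 1135. *Siglecf*, a surface lectin, made up most of both sums (510 and 877). Of the other markers, named after their values were seen, *Prg3*, a relative of *Prg2*, had 196 in the Lin− and 8.24 in the CD11b+ table, and *Il5ra*, a chain of the interleukin-5 receptor, had 27.8 and 2.84. The eosinophil ribonucleases *Ear1* (0.488 and 38.8) and *Ear2* (0.446 and 179) had the opposite order. Markers of mast cells and basophils were at 10 or more for 8 of 8 genes in the Lin− table, with a summed mean of 8844 and *Cpa3*, a mast cell carboxypeptidase, the highest at 2826. In the CD11b+ table, 5 of 7 were at that level, with a summed mean of 2420. *Hdc* was the highest there at 1496 and made up most of that sum, and its Lin− mean was similar, at 1412. *Prss34*, a protease of basophils, was the lowest in the CD11b+ table at 0.539. The part of these cells in the *Epx* and *Prg2* levels was not tested.

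**Figure D1:**
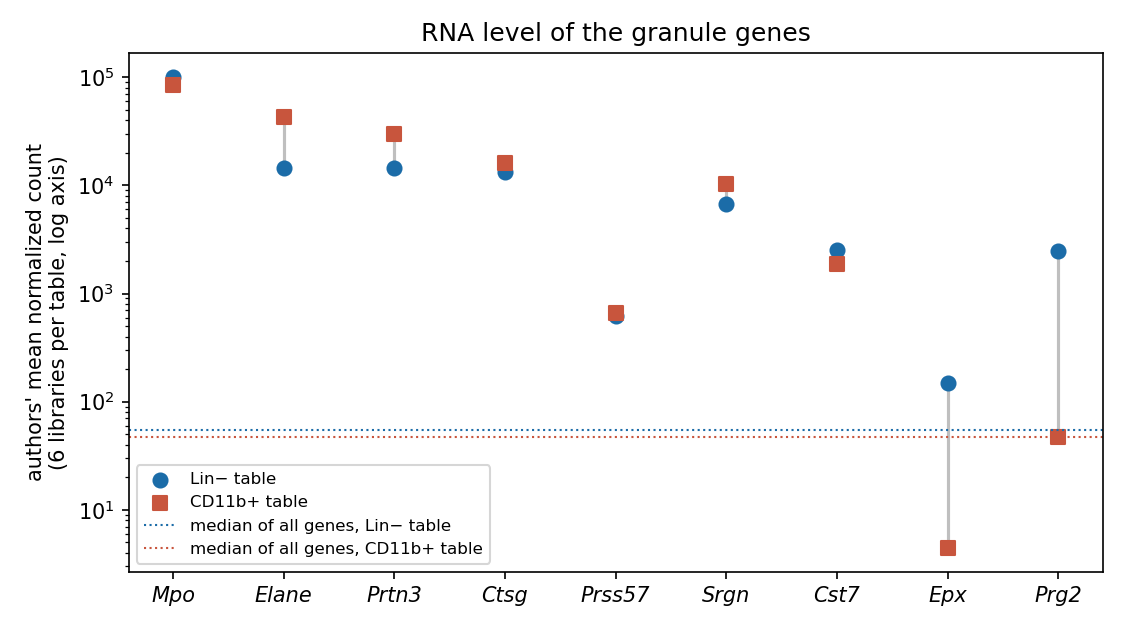
Authors' mean normalized count of each granule gene over 6 RNA-seq libraries, on a log axis, in the Lin− table (circles) and the CD11b+ table (squares). Dotted lines mark the median of all genes (54.7 and 47.3), and only *Epx* in the CD11b+ table (4.41) lies well below them, with *Prg2* of that table at 47.3.

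Markers of the 2 populations stood beside these levels. The CD11b+ table gave *Itgam*, which encodes CD11b, a mean of 17, the lowest of the 10 macrophage and monocyte markers. An eCLIP peak was still named for it in all 4 CD11b+ libraries, and in 2 of 6 Lin− libraries. *Csf1r*, the receptor of macrophage colony-stimulating factor, was the highest of that list in both tables, at 7910 in Lin− and 15008 in CD11b+ cells. The list did not point to 1 population. Its median was 394 in the Lin− table (9 genes listed) and 213 in the CD11b+ table, and its summed mean was 13452 and 21811. Of 6 progenitor markers, all were at 10 or more in both tables, with a summed mean of 32947 in Lin− and 5930 in CD11b+ cells. A list of later granule and neutrophil maturity genes had a summed mean of 10982 and 141065. *S100a8* (2083 and 39348) and *S100a9* (3544 and 36386), which encode cytosolic and not granule proteins, made up much of both sums. The B-cell markers had a median of 5.77 and 102, and the erythroid markers one of 45.8 and 999. The part of these other cells in the levels of the granule genes was not tested.

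IGF2BP3 peaks were found on 5 of the 9 genes. In Lin− cells *Mpo*, *Elane*, *Prtn3*, *Ctsg* and *Srgn* had at least 1 input-filtered peak in at least 1 of 6 libraries, where 26.5% of all genes of the table and 76.5% of genes with a mean of at least 1000 did. In CD11b+ cells *Elane*, *Prtn3*, *Ctsg* and *Srgn*, 4 of the 9, had one in at least 1 of 4 libraries, against 25.6% of all genes and 68.4% of those with a mean of at least 1000. The members with a mean of at least 1000 numbered 7 in Lin− and 6 in CD11b+ cells, so 5 of 7 and 4 of 6 is near the share of equally abundant genes. No peak was named for *Prss57*, *Cst7*, *Epx* or *Prg2* in any of the 10 libraries. The read depth of the libraries is unknown, so the lack of a peak does not mean that the protein was not bound.

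The libraries held 4040 to 10042 filtered peaks in Lin− and 7085 to 10054 in CD11b+ cells. Of these, 61 were named for a member, 43 in Lin− and 18 in CD11b+ libraries. The input filter removed 0 of the members' peaks. Over all genes it removed some in every library, leaving 7361 of 9111 in Lin− replicate 1 and 8521 of 9555 in CD11b+ replicate 1, for example. In the 10 input libraries, which held 217 to 1885 peaks and were called with other settings, 1 member peak was found, on *Srgn* in Lin− input replicate 2, with 5 reads. The number of reads was taken from the peak's name, where the peak caller CLIPper places it by convention. Member peaks were 20 to 107 bases wide and held 3 to 43 reads, with a median of 9.

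The technical libraries are not independent of the biological ones. Of the filtered peaks of all genes, 63.3% of those in Lin− replicate 4 overlapped a peak of replicate 1, 69.9% in replicate 5 one of replicate 2, and 60.3% in replicate 6 one of replicate 3. In CD11b+ cells, 58.9% in replicate 3 overlapped replicate 1 and 65.8% in replicate 4 replicate 2. Each of these shares was the highest that the technical library had with any library of its cell type. The labels do not state the pairing.

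*Mpo* carried 32 of the 61 peaks (52.5%), all in Lin− cells. The biological Lin− libraries held 11, 2 and 5 *Mpo* peaks, with 224, 26 and 23 reads, and the technical ones held 9, 2 and 3, with 80, 17 and 9 reads. The 4 CD11b+ libraries held 0, before the input filter as well, although *Mpo* RNA ranked 4 in that population. The groups did not overlap, with a mean of 6 ± 4.58 peaks (SD, n = 3) against 0 in the biological libraries. Of the 3827 genes with a mean of at least 1000 in both tables, 9.67% likewise had more peaks in every biological Lin− than in every biological CD11b+ library. The exact two-sided permutation test gave p = 0.2, and with 3 libraries against 2 no p below 0.1 was possible. Over all libraries, 1.07% of these 3827 genes had a peak in every Lin− and no CD11b+ library, and 1.52% had the opposite pattern. By its summed peaks *Mpo* ranked 92 among 7944 genes with a peak in Lin− cells.

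*Prtn3* was the member with the most peaks in CD11b+ cells. The CD11b+ libraries held 4 and 3 (biological) and 2 and 1 (technical) *Prtn3* peaks, with 64, 36, 62 and 18 reads. The Lin− libraries held 2, 0 and 1 (biological) and 1, 0 and 0 (technical), with 22, 0, 4, 7, 0 and 0 reads. The biological groups did not overlap, at 3.5 ± 0.707 (SD, n = 2) against 1 ± 1 (SD, n = 3), while technical CD11b+ replicates 3 and 4 lay within the Lin− range. Such a separation with CD11b+ higher was found for 10.6% of the 3827 genes with a mean of at least 1000 in both tables. The difference had an exact two-sided permutation p of 0.2.

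*Ctsg* was found in both populations at similar numbers. Lin− replicates 1 to 6 held 2, 1, 0, 1, 0 and 1 peaks, with 47, 6, 0, 8, 0 and 7 reads, and CD11b+ replicates 1 to 4 held 0, 1, 2 and 1, with 0, 9, 9 and 4 reads. *Srgn* had 1 peak in Lin− replicate 1 and 1 and 2 peaks in CD11b+ replicates 1 and 2. *Elane* had 1 peak of 3 reads in Lin− replicate 4 and 1 of 4 reads in CD11b+ replicate 2, although its mean was close to or above that of *Prtn3*.

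**Figure D2:**
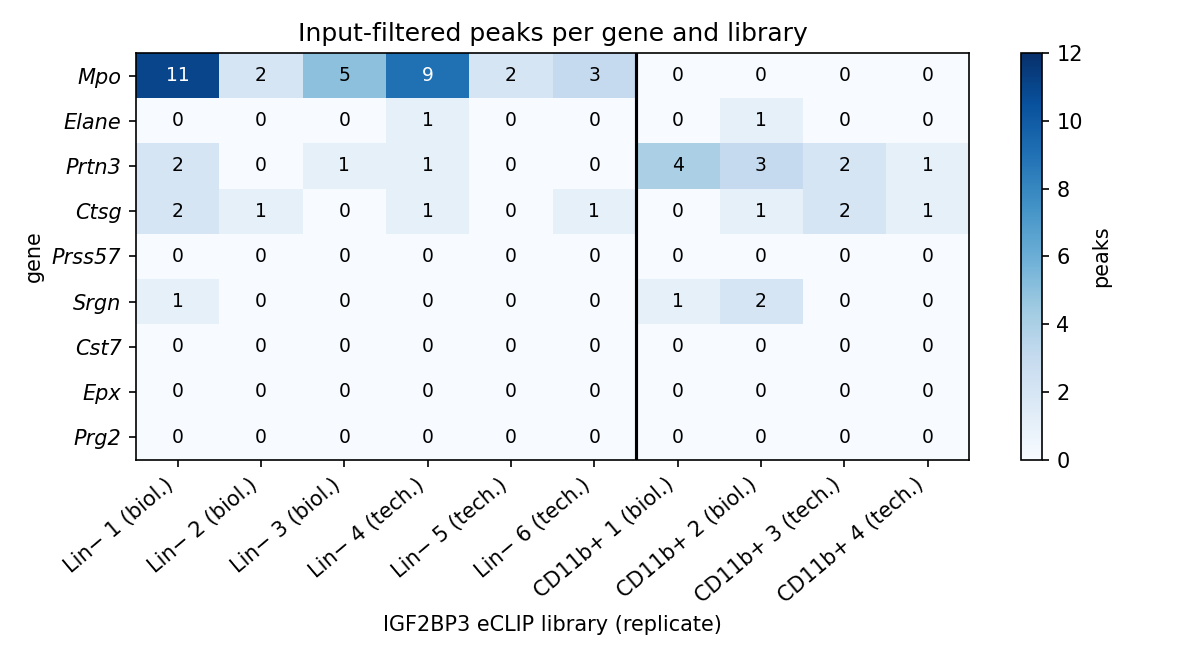
Number of input-filtered IGF2BP3 peaks for each gene (rows) in each eCLIP library (columns), with biological and technical replicates marked and a line between Lin− and CD11b+ libraries. *Mpo* has 2 to 11 peaks in each Lin− library and 0 in each CD11b+ library, and *Prtn3* has 1 to 4 in each CD11b+ library.

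Taken over all members, the peaks did not separate the populations. Member peaks per 1000 filtered peaks were 2.17, 0.299 and 0.691 in the biological Lin− libraries and 0.587 and 0.696 in the biological CD11b+ libraries. The means were 1.05 ± 0.989 (SD, n = 3) and 0.642 ± 0.0774 (SD, n = 2), a difference of 0.413 with an exact two-sided permutation p of 0.9. Lin− replicate 1 decided the direction, since without it the Lin− mean was 0.495 and the difference -0.147. Without *Mpo*, the Lin− mean was 0.298 and the difference -0.344. The number of members with a peak was 4, 2 and 2 in the Lin− and 2 and 4 in the CD11b+ biological libraries (exact two-sided permutation p = 1).

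Merging overlapping peaks gave 29 sites, of which 16 were found in at least 2 libraries and 9 in at least 2 biological libraries. *Mpo* had 15 sites, *Prtn3* 6, *Ctsg* 4, and *Elane* and *Srgn* 2 each. Of the 29 sites, 19 were found in Lin− cells alone, 15 of them on *Mpo*, 6 in CD11b+ cells alone and 4 in both. No counts over the sites of all genes stand beside these, so they cannot be called few or many.

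The 15 *Mpo* sites followed the introns of the gene, which lies on chr11:87793581-87804413. Of these sites, 8 crossed the 3′ end of an intron, 2 crossed the 5′ end, and 5 crossed no border. Peaks were centred within 50 bases of 9 of the 13 annotated 3′ splice sites of *Mpo*. The sites with the most reads were in the 5′ part of the gene. The intron 4 site held 38, 12 and 3 reads in Lin− replicates 1, 4 and 6. The exon 7 border held 32, 12 and 4 reads in replicates 1, 4 and 5, and the exon 4 border held 31, 4 and 13 reads in replicates 1, 2 and 4.

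The Lin− libraries divided over these sites. Replicate 1 held 11 sites and replicate 4 held 9, all of which were among the 11. The exon 6 coding site, centred 35 bases inside the exon, was the reverse, with 22, 5, 13 and 3 reads in replicates 2, 3, 5 and 6 and no peak in replicates 1 and 4. In replicates 1 and 4 a peak lay just before it instead, at the border of exon 6 (chr11:87795752-87795798), with 22 and 5 reads. The exon 15 border was shared by replicates 1, 3 and 4, with 9, 6 and 11 reads. No *Mpo* site was found in all 3 biological libraries. The CA repeat of intron 10 was found in Lin− replicate 3 alone, with 5 reads, and the TG repeat of intron 8 in replicate 1 alone, with 12.

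**Figure D3:**
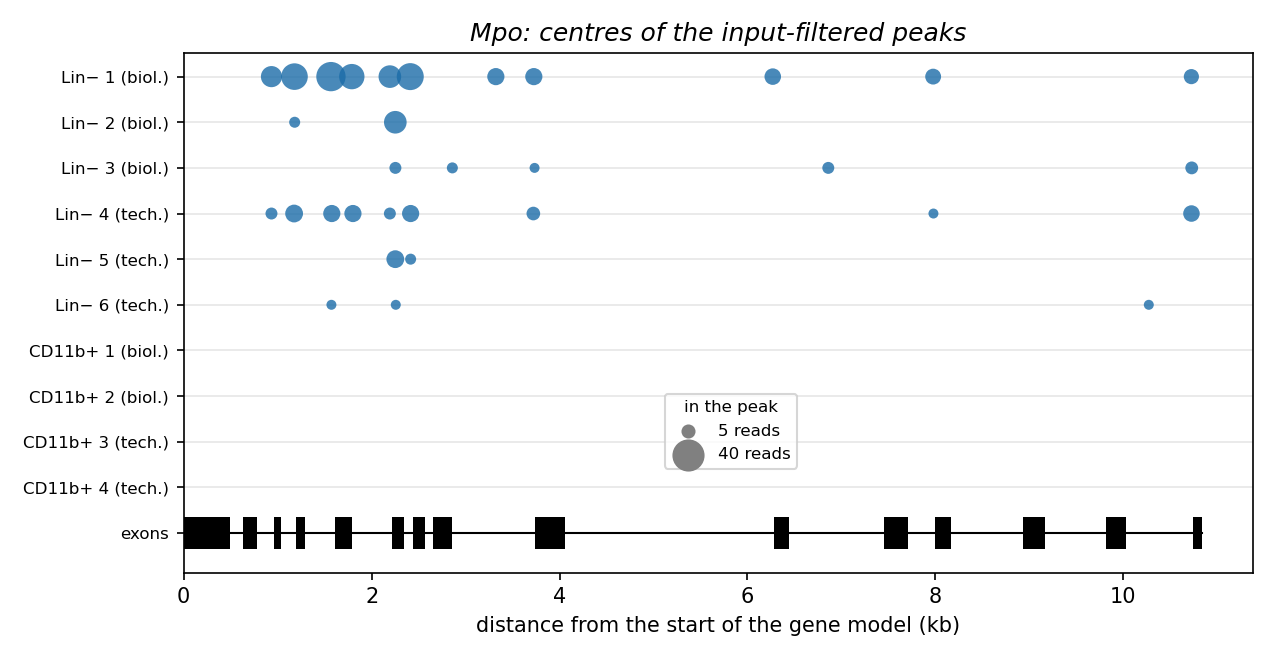
Centres of the input-filtered peaks of *Mpo* in each eCLIP library, by distance from the start of the gene model in kb, with exons as black boxes and the area of a point growing with the reads in the peak. Most points of Lin− replicates 1 and 4 lie at the left edges of exons, and these libraries hold 11 and 9 peaks, and no point lies on the CD11b+ lines.

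The 6 *Prtn3* sites lay in introns 3 and 4. The intron 4 site was found in all 4 CD11b+ libraries, with 35, 16, 43 and 18 reads in replicates 1 to 4, and in Lin− replicate 4 with 7. It was 107 bases wide after merging and its centre lay at -373 bases from the nearest 3′ splice site, negative positions being in the intron, far outside the 50 bases within which most *Mpo* peaks were centred. The exon 4 border (chr10:79881875-79881948) was found in CD11b+ replicates 1 and 2, with 15 and 11 reads, and in Lin− replicate 1 with 3. The exon 5 border, with 19 reads, was the strongest *Prtn3* peak of Lin− replicate 1 and was found in no other library.

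The *Ctsg* exon 5 border was the member site found in the most libraries. It held 28, 6, 8 and 7 reads in Lin− replicates 1, 2, 4 and 6 and 9 and 4 reads in CD11b+ replicates 2 and 4. The exon 4 border was found in Lin− replicate 1 alone, with 19 reads. In CD11b+ replicate 3, *Ctsg* had 2 peaks inside intron 4, with 4 and 5 reads.

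**Figure D4:**
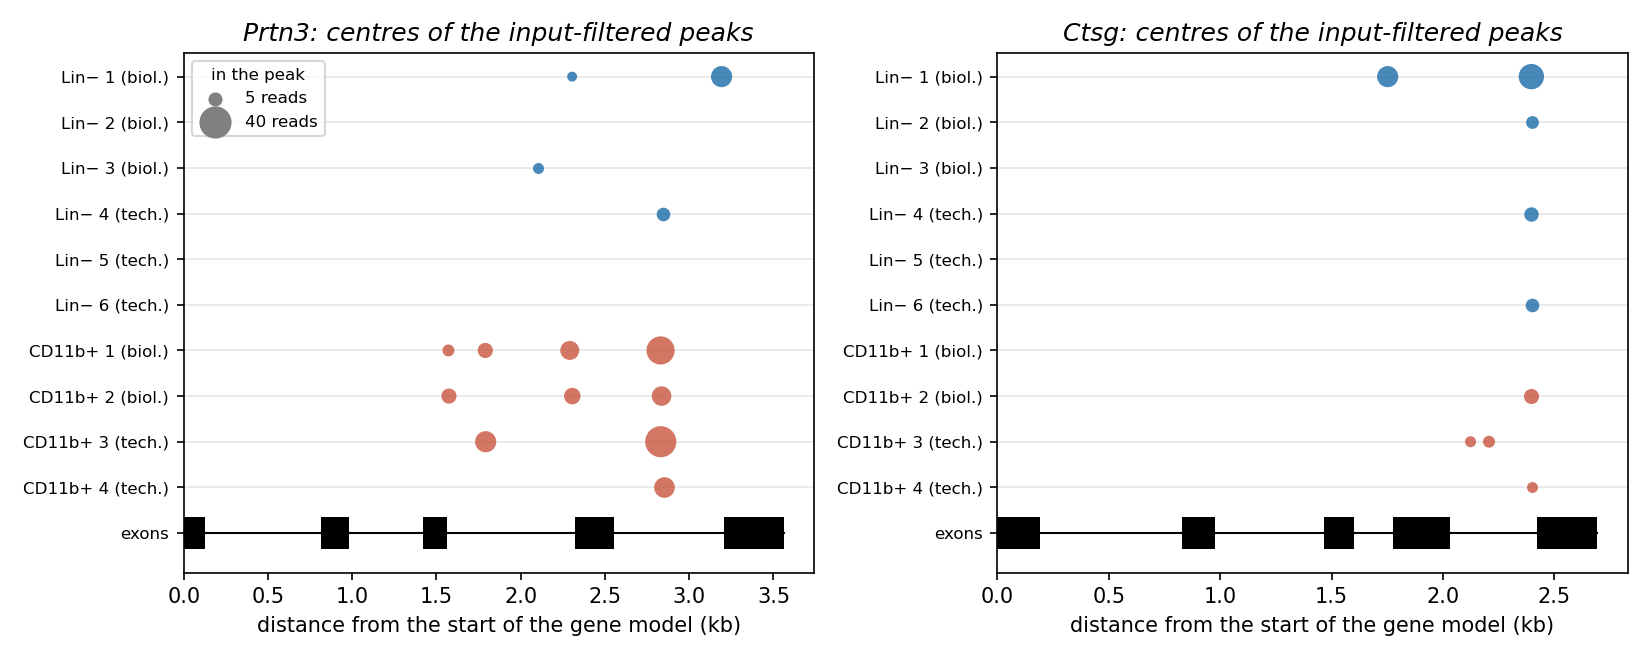
Centres of the input-filtered peaks of *Prtn3* (left) and *Ctsg* (right) in each eCLIP library, by distance from the start of the gene model in kb, drawn as for *Mpo*. The *Prtn3* intron 4 site stands in all 4 CD11b+ libraries and in 1 Lin− library, and the *Ctsg* exon 5 border in 4 Lin− and 2 CD11b+ libraries.

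The *Srgn* TG repeat in intron 3 was shared by Lin− replicate 1 (5 reads) and CD11b+ replicates 1 and 2 (5 and 15 reads). It lies at another place in the gene than the input peak, which covers chr10:62525383-62525394. The *Elane* peaks crossed the 5′ end of intron 3 in Lin− replicate 4 and the 3′ end of intron 4 in CD11b+ replicate 2.

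By the centre of the peak, 56 of the 61 member peaks lay in introns (91.8%, 95% Wilson interval 82.2 to 96.4), against 75.8% of the peaks of all genes. The other 5 lay in coding exons of *Mpo*. Intervals here cover counting error only, and peaks of 1 gene or library are not independent. When a peak was assigned to an exon at any overlap, 44.3% of the member peaks remained intronic against 53.6% of the peaks of all genes. The order of the shares thus turned around, but the gap was small within each cell type. It was 32.6% against 36.5% in Lin− and 72.2% against 74.7% in CD11b+ libraries. Of the 28 intronic sites, 17 reach into an exon. No member peak was centred in a 3′ UTR. That count, 0 of 61, allows a share of up to about 4.92%, an approximate upper 95% bound and not a Wilson interval. Of the peaks of all genes 4.74% lay there, at 2.64% in Lin− and 7.33% in CD11b+ libraries.

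Nearness to 3′ splice sites was measured after the sites had been seen. In Lin− libraries, 33 of 43 member peaks (76.7%, 95% Wilson interval 62.3 to 86.8) were centred within 50 bases of a 3′ splice site of their gene. The share was 37.8% for the peaks of all genes and 43.6% for genes with a mean of at least 1000. *Mpo* accounted for 26 of the 33, and without it 7 of 11 peaks were that near. In CD11b+ libraries, 5 of 18 member peaks (27.8%, 95% Wilson interval 12.5 to 50.9) were that near, against 9.55% for all genes and 11.7% for abundant ones. The share over all genes itself varied among biological Lin− libraries, at 58.2%, 21% and 43.8%, and the members' counts there were 13 of 16, 3 of 3 and 3 of 6. Over both cell types, 62.3% of member peaks were that near, and 48.5% without Lin− replicates 1 and 4, which held the most member peaks. CD11b+ peaks weigh more in the second share, so it does not measure the share within Lin− cells. In Lin− replicates 2, 3, 5 and 6 the counts were 3 of 3, 3 of 6, 2 of 2 and 3 of 4.

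**Figure D5:**
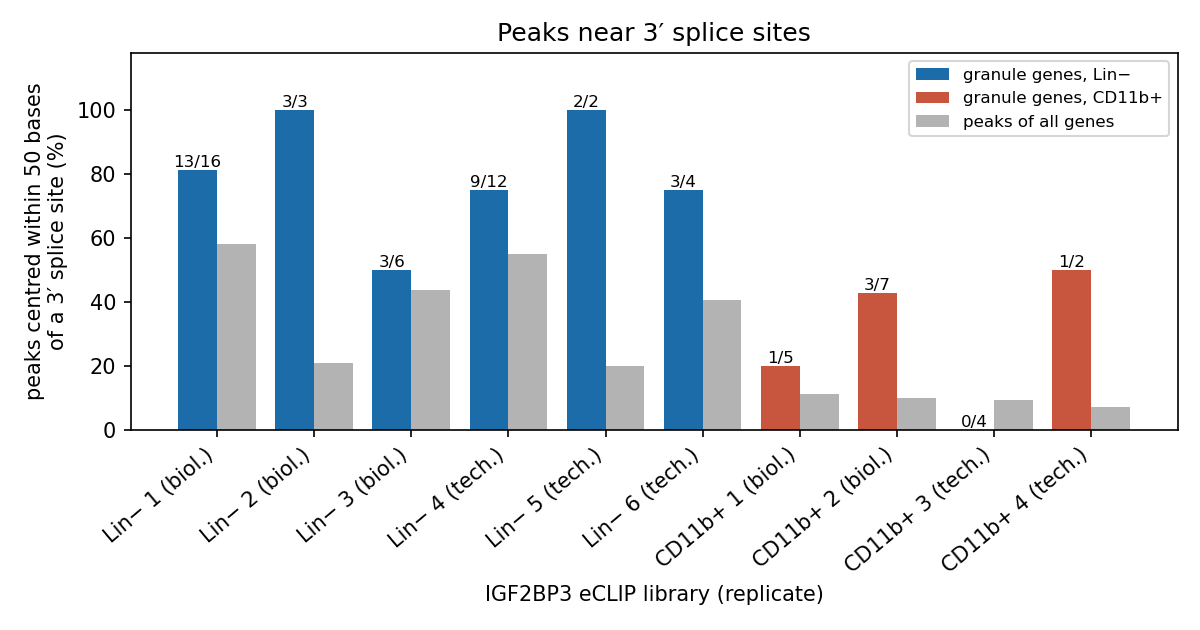
Share of peaks centred within 50 bases of a 3′ splice site in each eCLIP library, for the granule genes (blue for Lin−, red for CD11b+, with the number of peaks above each bar) and for all genes (grey). The granule genes' bar is above the grey bar in every library except CD11b+ replicate 3, where 0 of 4 peaks qualify, and most bars rest on fewer than 10 peaks.

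The CA-rich 6-mers ACACAC and CACACA, which overlap each other, were searched on the strand of each peak. They occurred in 1 of the 61 member peaks (1.64%, 95% Wilson interval 0.29 to 8.72), that over the *Mpo* intron 10 repeat, and in 11.9% of the peaks of all genes. The 4-mer CACA occurred in 13 member peaks (21.3%) and in 20.6% of all peaks. These shares pool 2 cell types that differ. In Lin− libraries the 6-mers were in 2.33% of member peaks against 8.25% of all peaks, and CACA in 25.6% against 19.3%. In CD11b+ libraries the 6-mers were in 0% of 18 member peaks against 16.4%, and CACA in 11.1% against 22.2%. The order for CACA thus differed between the cell types, on few member peaks.

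Genes that work with these proteins were described by counts. The list of granule partners held 10 genes, all in both tables. Peaks were found on 8 of them in Lin− and 6 in CD11b+ cells. The list had no level floor, and the partners with a mean below 1000 had no peak. Every partner with a mean of at least 1000 had a peak in Lin− cells, against 76.5% of all such genes. In CD11b+ cells most of them did, against 68.4%. Calreticulin (*Calr*), the chaperone of myeloperoxidase folding, had the highest Lin− mean (26257) and peaks in 6 of 6 Lin− and 4 of 4 CD11b+ libraries. Lysozyme (*Lyz2*) had the highest CD11b+ mean (72146) and peaks in 2 of 6 Lin− and 4 of 4 CD11b+ libraries. *Bpi*, a bactericidal granule protein, was lowest in both tables (5.63 and 25) and had no peak. Of the 8 transcriptional regulators of granule genes listed, 7 were matched, and peaks were found on 6 in each population. The same shares of 76.5% and 68.4% stand beside them, as all but *Cebpe* in Lin− cells had a mean of at least 1000. *Myb*, needed for progenitor growth, was the highest of them in both tables (22675 and 37516), with a peak in all 10 libraries. *Cebpe*, needed for the later granules, was the lowest (507 and 1437) and had none.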

How the data were processed

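RNA-seq and IGF2BP3 eCLIP were made from Lin− and CD11b+ cells, and groups were taken from the sample labels. Per the submitters' processing notes, reads were mapped with STAR 2.5.3a to mm10, with Bowtie2 and DESeq2 also named. For RNA-seq, the authors deposited 1 table per cell type. The mean normalized count (a signal averaged over both genotypes, normalized within its table) was used as deposited. The other columns hold the authors' own genotype comparison (fold change, standard error, statistic, p-values and peak marks) and were not used, so knockout and wild type were not compared. For eCLIP, CLIPper was run by the authors on each library and peaks overlapping those of the size-matched input were dropped, and the value deposited in the fifth column (at most 0.05) was read as the p-value. Inputs were deduplicated and called with other settings per the file headers. Read depth is unknown.

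Peaks were joined to genes by the Ensembl ID in their name and located in GENCODE M21 (basic set). A peak within 50 bases of an annotated 3′ splice site was called near it. Biological libraries were compared by exact permutation, and since the labels do not say that they came from separate animals, p-values measure only the spread between these libraries. Alternatives covered the input filter, a value below 0.001, technical libraries, overlap with the gene model, leaving out each library, annotation and distance. Functions were tested on simulated peaks (15 of 15 tests). Python 3.11.15, pandas 2.3.3, NumPy 2.4.6, SciPy 1.17.1, pysam 0.24.0 and matplotlib 3.10.9 were used. All 9 members are named. Of the other lists, genes with the highest or lowest mean are named, and the 3 genes nearest to *Mpo*. Members and lists were chosen with earlier results of these data known.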

Additional observations from a re-analysis of the deposited data

Results flagged for a closer look

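In each cell type, the highest or lowest library was compared with the rest by Dixon's criterion for 22 sets of values, and in 10 sets a library stood apart. Chance would mark about 1 in 20 sets of independent measurements. That rate does not hold here, because technical libraries were included and many sets are 0 in all but 1 library. In Lin− replicate 1, the reads in peaks were 224 for *Mpo*, 22 for *Prtn3* and 47 for *Ctsg*, each far above the next library. The remaining marks rest on 1 library with a peak among libraries with none or on counts of a few peaks. In Lin− cells these were *Srgn* in replicate 1 (1 peak, 5 reads) and *Elane* in replicate 4 (1 peak, 3 reads). In CD11b+ cells they were *Elane* in replicate 2 (1 peak, 4 reads) and the 4 members with a peak in replicate 2, where the other libraries had 2.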

How the results depend on the processing

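The difference between Lin− and CD11b+ in member peaks per 1000 peaks was 0.413. With 3 libraries against 2 the test could not give a p below 0.1, so its p says nothing about stability. The direction was kept under 10 of 12 alternatives. Leaving out each biological library gave -0.147 to 0.791, and the negative value came from leaving out Lin− replicate 1. Leaving out *Mpo*, chosen after seeing the data, gave -0.344. The number of members with a peak differed by -0.333, and by -1.33 to 0.667 when each library was left out, with the positive value without CD11b+ replicate 2. Replicate numbers 1 and 2 occur in both cell types, but the labels give no pairing, and over 8742 genes the differences between replicates 1 and 2 correlated at -0.156. With the replicate block the differences were 0.595 and 0, and with 2 pairs no exact sign-flip p below 0.5 was possible. Members bound fell from 5 to 3 in Lin− cells with a value below 0.001 and to 3 with at least 2 biological libraries. In CD11b+ cells they fell from 4 to 2 with at least 2 biological libraries. The members' median percentile by level was 97.2 in Lin− and 99 in CD11b+ cells, 95.6 and 98.8 among genes with a mean of at least 10, and 98.5 and 98.3 per length. The intronic share of 91.8% became 44.3% at any exon overlap, below that of all genes, and 82% with the comprehensive annotation. CA-rich letters were in 1.64% of peaks as 6-mers and 21.3% as CACA. The share near a 3′ splice site over both cell types, 62.3%, was 21.3% within 20 bases. It was 48.5% without Lin− replicates 1 and 4, and 55.6% to 59.2% without either of them, as CD11b+ peaks then weighed more. Sites in at least 2 libraries numbered 16 when merging required an overlap of 0.5 of the shorter peak as well. Read depth per library is unknown, so its limit on peaks of few reads could not be measured. The reads in all filtered peaks ranged from 35663 in Lin− replicate 6 to 233695 in Lin− replicate 2, with 82467 in Lin− replicate 1. Read counts of members were not scaled to these totals, which also depend on the peaks called.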

Other observations

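Some members are neighbours in the genome. *Mpo* and *Epx* are 59586 bases apart on chromosome 11, on opposite strands, and *Prtn3* and *Elane* are 3072 bases apart on chromosome 10, on the same strand. With *Prss57*, 83514 bases from *Prtn3* and on the other strand, they differed widely in the number of peaks, at 0 for *Prss57*, 14 for *Prtn3* and 2 for *Elane* over the 10 libraries.

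By summed peaks, *Prtn3* ranked 687 among 7341 genes with a peak in CD11b+ cells and 2588 among 7944 in Lin− cells. Of the 25 genes with the highest mean, 15 had a peak in Lin− cells and 15 in CD11b+ cells, so a high mean without any peak, as for *Mpo* in CD11b+ cells, was not rare among the most abundant RNAs.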
